A study of Rattus norvegicus with 16 samples.

Results

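Oxidative phosphorylation is the main source of ATP in the kidney cortex, where the tubules spend most of it on moving sodium. Complexes I and II pass electrons from NADH and from succinate to coenzyme Q, complex III passes them on to cytochrome c and complex IV to oxygen, and complex V, the ATP synthase, uses the proton gradient that complexes I, III and IV build. All but a few subunits are encoded in the nucleus, and complex II is also an enzyme of the citric acid cycle.

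The nuclear subunit genes were taken as those rows of the array table that carry a single gene symbol starting with Ndufa, Ndufb, Ndufc, Ndufs, Ndufv, Uqcr, Cox4 to Cox8 or Atp5, or equal to Sdha, Sdhb, Sdhc, Sdhd or Cyc1. Ndufaf symbols, which name assembly factors, were left out, and of several rows of a symbol the one with the highest mean was kept. This gave 92 symbols from 98 rows, out of 18166 different symbols and 36685 rows in all. By name, 40 belonged to complex I, 4 to complex II, 10 to complex III, 18 to complex IV and 20 to complex V. The symbols were of unequal kind: 67 named a subunit that most tissues use (33, 4, 8, 9 and 13 by complex), 16 a pseudogene or a near copy such as Ndufb4l1, 7 a tissue-restricted isoform such as Cox6a2 of muscle, and 2 (Cox7a2l, a factor of supercomplexes, and Atp5if1, the inhibitor of the ATP synthase) no subunit. This sorting was made after the symbols and their mean levels had been seen. The 67 subunits all had a mean level above that of 64.2% of the rows. Of the mitochondrially encoded subunits, 0 of 13 were found under the symbols searched, and they are not analysed here.

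RNA of the superficial kidney cortex was measured on Affymetrix RaGene-2_0-st arrays in 16 male Sprague-Dawley rats aged 7 weeks, 1 array per rat and 4 rats per group, after 7 days on their diet. CNS rats had tap water and a normal-salt chow, FNS rats 20% fructose as fluid and the same chow, CHS rats tap water and a high-salt chow with 4% NaCl, and FHS rats 20% fructose and the high-salt chow. The chows came from different makers and, by the study's methods, also differed in protein, carbohydrate and energy content, so that "high salt" below stands for the whole high-salt chow and its parts cannot be told apart. Pairs of rats shared a cage, and which rats did is not in the labels. Values are log2 values as deposited, and a difference of 1 is a doubling. Each difference was tested over all 36685 rows (limma, 1 mean per group over all 16 arrays, two-sided) and called where p, adjusted by the method of Benjamini and Hochberg over every row of the table, was under 0.05. Because the slice is bulk tissue, fewer cells of a type and less RNA per cell cannot be told apart.

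The arrays were alike, with a pairwise correlation of at least 0.968 over all rows, but 2 things stood apart. The median of all rows was 5.33 to 5.44 on the FHS arrays, highest in rat 14, and 5.25 to 5.34 on the 12 others. Among the 67 subunits, CNS rat 2 was the highest of its group for 58 and the highest of all 16 rats for 33, while FHS rat 14 was the lowest of its group for 46 and the lowest of all 16 for 25. Each subunit centred on its mean over the 16 rats, the subunit mean was 0.24 in rat 2 and between -0.12 and -0.03 in the other CNS rats, and it was -0.20 in rat 14 and between -0.03 and -0.01 in the other FHS rats. Among ribosomal proteins rat 14 stood apart in the mitochondrial ones, and otherwise both rats lay near the ends of the range of the others. The mean of 71 mitochondrial ribosomal proteins, centred in the same way, was 0.12 in rat 2, -0.21 in rat 14 and -0.07 to 0.10 in the others, and that of 126 cytosolic ribosomal proteins was 0.17 in rat 2 and -0.13 in rat 14, beside -0.15 in CNS rat 4 and 0.14 in CHS rat 11. Medians of the subunits that these rats move are given with and without them.

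Before the values, the promoters show what the subunit genes share in sequence. RefSeq windows of the GRCr8 build, from 250 bases before to 50 after the start, were found for 59 of the 67 subunits, and 4 motifs known from genes of the respiratory chain were searched as 7-letter words on both strands: GCATGCG, bound by NRF1, CCGGAAG, bound by GABPA and other ETS factors, AAGGTCA, bound by ESRRA and other nuclear receptors, and AGATGGC, bound by YY1. The ETS word stood in 32.2% of the subunit promoters and in 12.6% of the 14505 promoters of genes on the array, the YY1 word in 27.1% and 6.8%, the nuclear receptor word in 16.9% and 3.4%, and the NRF1 word in 15.3% and 4.7%. In all 27457 windows of the table the shares were 9.2%, 6.7%, 4.4% and 3.5% in the same order. At least 1 of the 4 stood in 35 of 59 subunit promoters (59.3%, against 24.3%) and in 0 of 7 promoters of pseudogenes and copies. By complex the share with any word was 17 of 31 for complex I, 3 of 4 for complex II, 4 of 5 for complex III, 3 of 7 for complex IV and 8 of 12 for complex V. A match is a description of letters and not a binding site. The YY1 word contains ATG, the letters of a start codon, so a match past the start can be coding sequence. How far this raises its share was not checked.

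**Figure D1:**
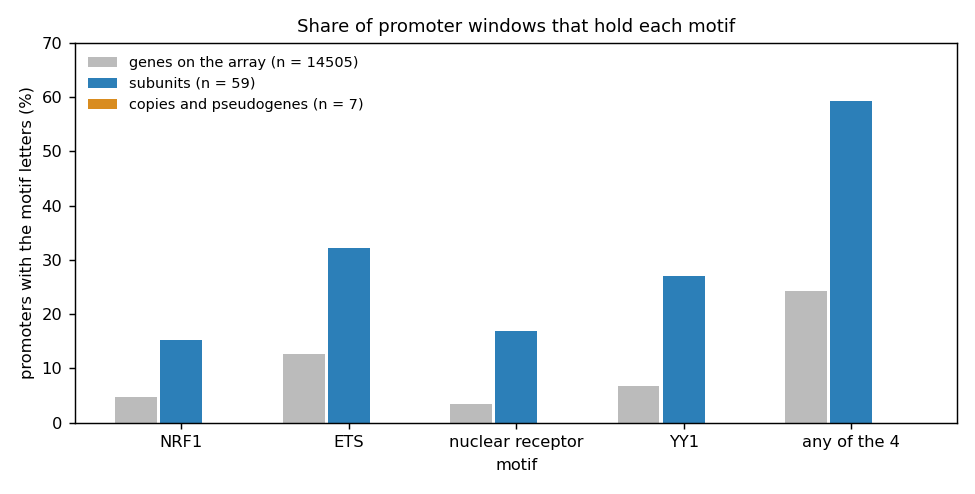
Percent of promoter windows (y axis) that hold each motif word on either strand (x axis), for 14505 genes with a row of their own on the array, 59 subunits and 7 pseudogenes or copies. The subunit bars stand above those of the array genes for each word, at 59.3% against 24.3% for any of the 4, and the copies have none.

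Of the subunits called in a comparison below, 6 had a window, and 3 of these held a motif word (none was found in Ndufv1, Uqcrfs1 or Cox6b1). These 3 are shown because they hold a word, from 100 bases before to 50 after the start, with the motif letters in capitals. All 3 were higher on the high-salt chow, as was Ndufv1, which holds no word, and a link between words and chow was not tested. They belong to Uqcrc1, a core protein of complex III (chr8:118468123-118468272, plus strand), Sdhc, a membrane anchor of complex II (chr13:86097976-86098125, minus strand), and Ndufa9, a complex I subunit that stabilises the junction of its membrane and matrix arms (chr4:161374121-161374270, minus strand).
Uqcrc1: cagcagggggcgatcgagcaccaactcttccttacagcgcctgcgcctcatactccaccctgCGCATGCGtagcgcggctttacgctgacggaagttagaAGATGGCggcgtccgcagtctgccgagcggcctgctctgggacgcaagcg
Sdhc: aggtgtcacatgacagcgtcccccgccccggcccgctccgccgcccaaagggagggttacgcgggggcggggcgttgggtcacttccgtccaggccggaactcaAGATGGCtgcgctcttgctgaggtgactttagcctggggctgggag
Ndufa9: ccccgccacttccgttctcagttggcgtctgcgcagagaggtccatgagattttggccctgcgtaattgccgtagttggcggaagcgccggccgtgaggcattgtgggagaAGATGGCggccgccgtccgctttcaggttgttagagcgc
In all 3 the YY1 word lies just past the start, beginning at base 1 in Uqcrc1, base 5 in Sdhc and base 12 in Ndufa9, and Uqcrc1 has in addition the NRF1 word, which reads on both strands, from base -38 on. Whether the ATG within these YY1 words is the start codon of the gene was not checked.

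Whether fructose moved the subunits on the normal-salt chow is asked by FNS against CNS. No member passed the test (0 of 92, with 0% of all rows called), and at an unadjusted p under 0.05 there were again 0 of 92, against 4.15% of all rows. The median difference was -0.003 over the 92 members and -0.02 over the 67 subunits, against -0.001 over all rows. The smallest p belonged to Sdha, the catalytic flavoprotein of complex II. Its level was 11.92, 12.04, 11.89 and 11.91 in the CNS rats and 11.97, 11.78, 11.68 and 11.63 in the FNS rats, a difference of -0.18 ± 0.10 (SE, adjusted p = 1), and the groups overlapped. For Ndufs5, a small accessory subunit of complex I, the difference was -0.20 ± 0.12, and for Sdhd, the second membrane anchor of complex II, -0.13 ± 0.08 (SE, limma, adjusted p = 1 for both). In the 95% interval of the difference, Atp5f1b, the catalytic beta subunit of the ATP synthase, lay between -0.15 and 0.17, Cox4i1, the largest nuclear subunit of complex IV, between -0.28 and 0.18, and Cyc1, cytochrome c1 of complex III, between -0.27 and 0.16.

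The sign of the median rested on rat 2. Without it, 51 of the 67 subunits lay above 0 in place of 27, and their median was 0.044 in place of -0.020. The members called stayed at 0.

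On the high-salt chow, most subunits lay lower with fructose, by little, and none passed the test. In FHS against CHS, 59 of the 67 subunits were below 0, with a median of -0.115, and 0 of 92 members were called, with 0.00273% of all rows called. The medians of the subunits by complex were -0.115 for complex I (28 of 33 below 0), -0.140 for complex II (4 of 4), -0.141 for complex III (8 of 8), -0.032 for complex IV (7 of 9) and -0.139 for complex V (12 of 13). Over all rows the median was 0.029, and over the 11603 rows with a single symbol and a mean above the median row it was -0.026, with 6577 below 0. At an unadjusted p under 0.05 there were 13 of 92 members, 2 higher and 11 lower, against 9.62% of all rows (6.06% higher and 3.57% lower).

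The member with the smallest p was Uqcrb, the ubiquinone-binding accessory subunit of complex III. Its level was 7.53, 7.44, 7.37 and 7.33 in the CHS rats and 6.99, 6.67, 7.03 and 7.24 in the FHS rats. The groups did not overlap, as for 15 of the 92 members (13 lower, 2 higher) and 5.12% of all rows (2.13% lower, 2.99% higher), and the difference was -0.44 ± 0.12 (SE, limma, adjusted p = 0.283). Ndufa2, a complex I subunit with a thioredoxin-like fold, was at 8.60, 8.24, 8.28 and 7.74 in the CHS rats and at 7.77, 7.36, 7.93 and 7.55 in the FHS rats. CHS rat 12 lay among the FHS rats, and the difference was -0.56 ± 0.17 (SE, limma, adjusted p = 0.316).

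Atp5me, a membrane-domain subunit of the ATP synthase, was at 9.77, 9.74, 9.84 and 9.53 in the CHS rats and at 9.29, 9.31, 9.33 and 9.31 in the FHS rats. These groups did not overlap either (-0.41 ± 0.15, SE, limma, adjusted p = 0.418). Within complex II the differences were -0.18 for Sdhc, -0.19 for Sdhd, -0.10 for Sdhb, the iron-sulfur subunit, and -0.05 for Sdha. In the other direction, Cox6b1, a subunit of complex IV on its outer side, and Ndufs5 had differences of 0.15 and 0.13.

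Without FHS rat 14 the median of the 67 subunits was -0.070, with 52 below 0, and the unadjusted count was 2 higher and 4 lower of 92. Centred on its median over all rows, which moves the median of all rows from 0.029 to -0.043 and so lowers every gene in FHS, 25 of 92 members had an unadjusted p under 0.05. The count was 20 with an intensity trend and 8 both after quantile normalization and on the 8 arrays compared alone, and none was called in any of these.

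Markers of cell types were read in the fructose comparisons too. Those of the distal convoluted and connecting tubule (7 of 7 found) had 6 of 7 below 0 with fructose on the high-salt chow (median -0.206) and 6 of 7 above 0 on the normal-salt chow (0.161), with mean levels of 9.05 to 9.46 in CNS, 9.05 to 9.67 in FNS, 9.18 to 9.53 in CHS and 9.14 to 9.33 in FHS. Those of the first proximal tubule segments (Slc34a1, Lrp2 and others, 9 of 10 found) had 6 of 9 below 0 on the high-salt chow (-0.007) and 9 of 9 above 0 on the normal-salt chow (0.162), and those of the third segment (6 of 6 found) 5 of 6 above 0 (0.342) and 4 of 6 below 0 (-0.141). Markers of fibroblasts and smooth muscle (7 of 8 found) had mean levels of 8.63 to 8.79 in CNS and 8.34 to 8.62 in FNS. In CHS and FHS they were at 8.40 to 8.67 and 8.32 to 8.75. Cx3cr1 of macrophages had a difference of 0.47 ± 0.09 on the high-salt chow (SE, limma, adjusted p = 0.105). The macrophage list as a whole was at 7.65 to 7.93 in CHS and 7.69 to 7.94 in FHS. None of these markers was called, and their part in the subunit values was not tested.

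**Figure D2:**
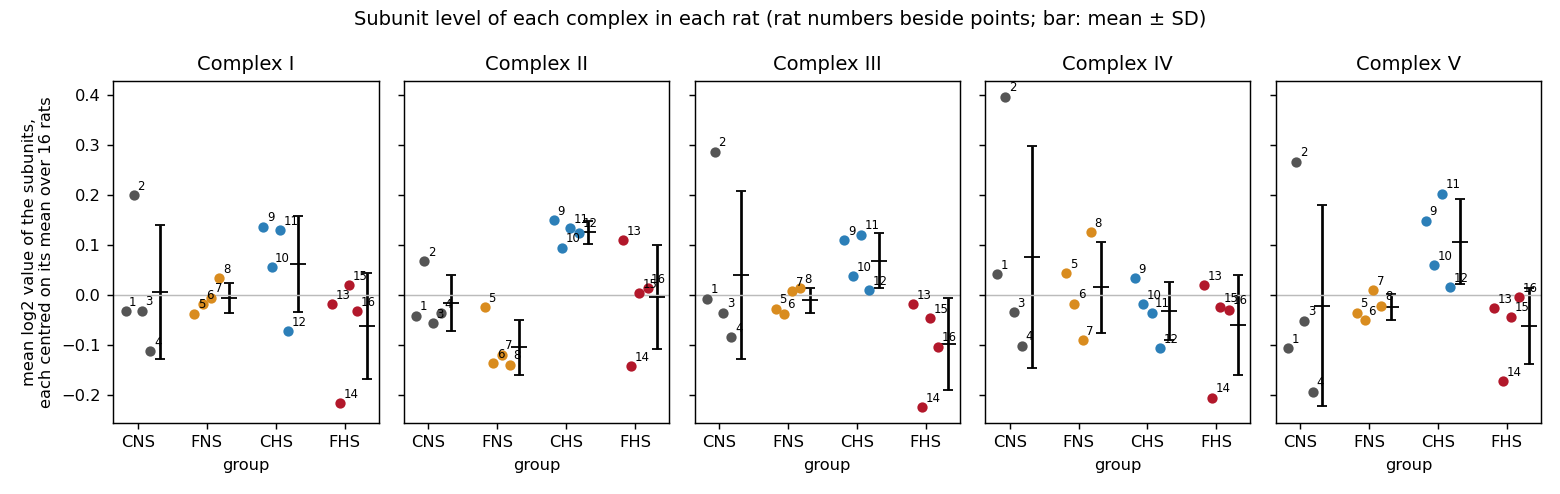
Mean log2 value over the subunits of each complex in each rat, every subunit centred on its mean over the 16 rats (y axis), by group (x axis); numbers are rats, and the bar gives the mean ± SD of the 4 rats. CNS rat 2 lies above the other CNS rats in each panel and FHS rat 14 is the lowest FHS rat in each, and in complex II the 4 CHS rats, between 0.09 and 0.15, lie above the CNS rats.

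The difference between the 2 fructose effects was tested as an interaction. It was called for 0 of 92 members, with 0% of all rows called, and 1 member had an unadjusted p under 0.05, against 6.09% of all rows. That member was Ndufa2, with a difference of -0.53 ± 0.24 between the chows (SE, limma, adjusted p = 0.812). Without CNS rat 2 there were 11 of 92 members with an unadjusted p under 0.05, all lower, and the median of the 67 subunits was -0.150 in place of -0.103. Without FHS rat 14 there were 0 of 92 and the median was -0.049, and without both rats there were 7, all lower, and the median was -0.129, with 0 called in each case. With all rats, the 11603 rows with a single symbol and a mean above the median row had an interaction median of -0.023. In the interaction the markers of the distal convoluted and connecting tubule had 7 of 7 below 0 (median -0.296), those of the first proximal segments 9 of 9 below 0 (-0.203) and those of the third segment 4 of 6 above 0 (0.379), and their part was not tested. Averaged over both chows, fructose gave 0 called members (0.00273% of all rows), and 8 with an unadjusted p under 0.05 (7.44% of all rows), of which Uqcrb (-0.27 ± 0.08, adjusted p = 0.48) and Atp5me (-0.32 ± 0.11, adjusted p = 0.5) had the smallest.

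On the high-salt chow single subunits were called, in opposite directions, and they were no larger a share of the members than the rows called were of all rows. In rats on water (CHS against CNS), Ndufa9 and Sdhc rose and Cox6b1 fell, and in rats on fructose (FHS against FNS) Uqcrb fell. These were 3 of 92 members, with 3.29% of all rows called (1.32% higher and 1.97% lower), and 1 of 92, with 5.36% of all rows called (2.73% and 2.63%).

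Ndufa9 was at 10.56, 10.69, 10.49 and 10.45 in the CNS rats and at 11.06, 10.99, 11 and 10.93 in the CHS rats. Each CHS rat lay above each CNS rat, and the difference was 0.45 ± 0.09, or 1.36-fold (SE, limma, adjusted p = 0.0139). In the FNS rats it was at 10.62, 10.50, 10.71 and 10.54 and in the FHS rats at 10.87, 10.60, 10.88 and 10.79, where rat 14 lay among the FNS rats and the difference was 0.19 ± 0.09 (adjusted p = 0.24).

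Sdhc was at 11.54, 11.44, 11.45 and 11.53 in the CNS rats and at 11.84, 11.75, 11.82 and 11.85 in the CHS rats. These groups did not overlap, with a difference of 0.33 ± 0.08, or 1.25-fold (SE, limma, adjusted p = 0.029). The other complex II subunits had differences of 0.07 (Sdha and Sdhb) and 0.10 (Sdhd) in rats on water, and all 4 lay above 0 in rats on fructose too, at 0.02 to 0.20, with none called.

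Cox6b1 was at 9.49, 10.07, 9.01 and 9.22 in the CNS rats and at 8.69, 8.55, 8.63 and 8.73 in the CHS rats. It was lower in every CHS rat, by -0.80 ± 0.19 or 0.576-fold (SE, limma, adjusted p = 0.0327), and its CNS rats had the widest spread of the 67 subunits (SD 0.46). With fructose it was at 9.29, 9.22, 8.92 and 9.64 in the FNS rats and at 8.96, 8.72, 8.85 and 8.66 in the FHS rats, which overlapped, with a difference of -0.47 ± 0.19 (adjusted p = 0.162).

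Uqcrb was at 7.39, 7.58, 7.52 and 7.56 in the FNS rats and, as above, between 6.67 and 7.24 in the FHS rats. Its difference was -0.53 ± 0.12, or 0.692-fold (SE, limma, adjusted p = 0.0195). In rats on water it was -0.20 ± 0.12 (adjusted p = 0.402), from 7.67, 7.85, 7.51 and 7.46 in CNS. A second row, shared by Uqcrb and its copy Uqcrbl1, had a difference of -0.62 ± 0.20 in rats on fructose (adjusted p = 0.0761). With the chow averaged over both fluids its difference was -0.39 ± 0.14 (limma, adjusted p = 0.0727).

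Fitted on the 8 arrays of the comparison alone, none of these 4 was called (adjusted p from 0.0532 for Ndufa9 to 0.0949 for Sdhc and Cox6b1, and 0.0684 for Uqcrb), while over all alternatives the adjusted p of Ndufa9 went from 0.00471 to 0.0532. The call of Ndufa9 held with any 1 rat left out. That of Sdhc was lost with the arrays centred on their medians (adjusted p = 0.0644) and without any of rats 1, 2, 3 and 9 to 12, that of Cox6b1 without rat 1 or any of rats 9 to 12, and that of Uqcrb without rat 6 or 8.

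**Figure D3:**
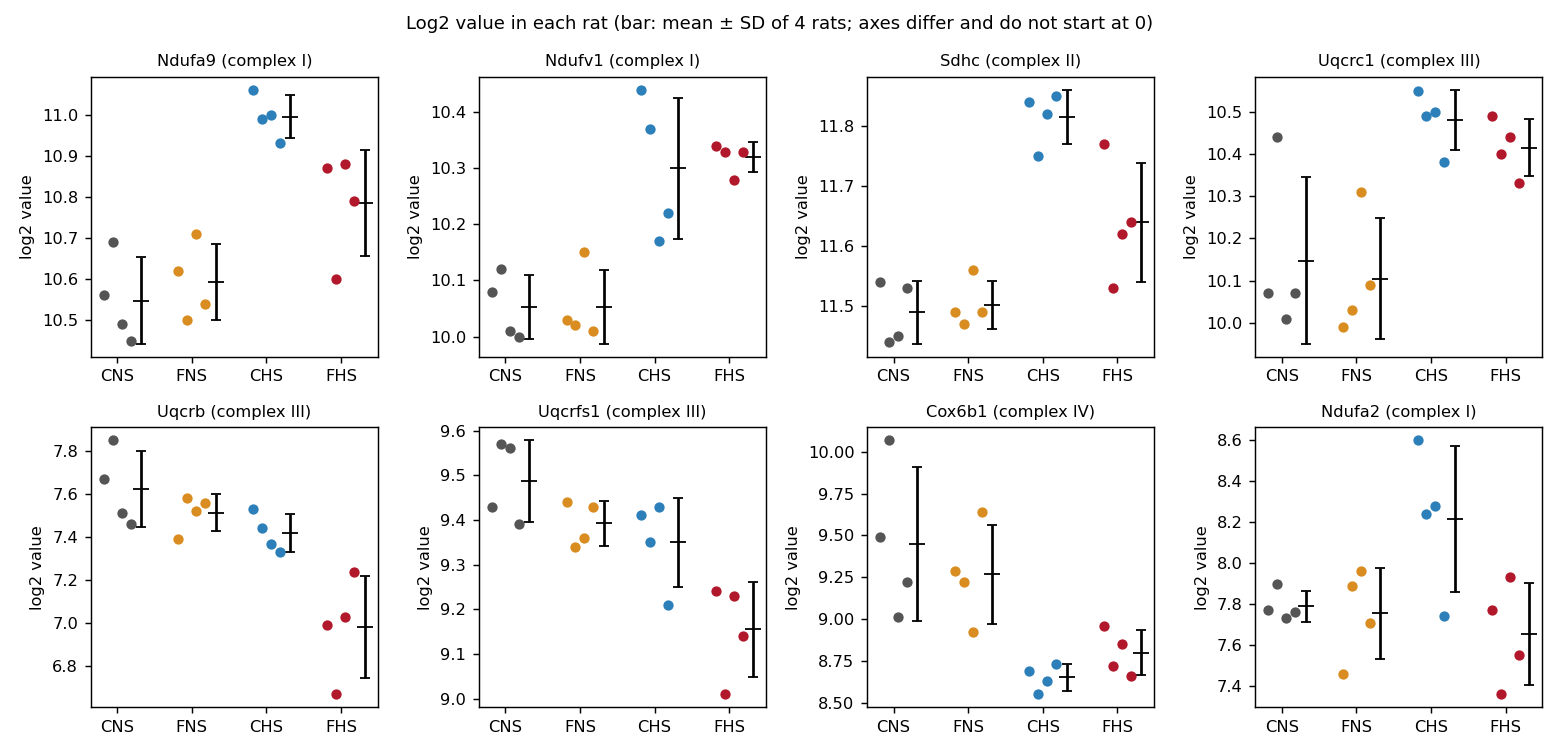
Log2 value (y axis) of 8 subunits in each rat, by group (x axis); the bar is the mean ± SD of 4 rats, and axes differ and do not start at 0. Ndufa9, Ndufv1, Sdhc and Uqcrc1 lie higher in the high-salt groups, and Uqcrb, Uqcrfs1 and Cox6b1 lower, with Uqcrb lowest in FHS (6.67 to 7.24).

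Averaged over both fluids, the high-salt chow gave 8 called members of 92, a smaller share than the 13.3% of all rows called. Of these, 6 were higher (6.49% of all rows) and 2 lower (6.77%). Higher were Ndufa9 (0.32 ± 0.06, adjusted p = 0.00415), Ndufv1, the flavin-bearing subunit of complex I at which NADH is oxidised (0.26 ± 0.06, 0.00849), Sdhc (0.23 ± 0.05, 0.00999) and Uqcrc1 (0.32 ± 0.07, 0.00923), besides the copies Ndufb4l1 (0.59 ± 0.13, 0.00869) and Cox7cl1 (0.36 ± 0.10, 0.0296). Lower were Uqcrb (-0.37 ± 0.08, 0.00988) and Cox6b1 (-0.63 ± 0.13, 0.00604), all SE and limma's adjusted p.

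Within complex III the directions were opposite. There Uqcrc1 was at 10.07, 10.44, 10.01 and 10.07 in the CNS rats and at 10.55, 10.49, 10.50 and 10.38 in the CHS rats, where rat 2 lay among the CHS rats. It was at 9.99, 10.03, 10.31 and 10.09 in the FNS rats and at 10.49, 10.40, 10.44 and 10.33 in the FHS rats, which did not overlap. So Uqcrc1 rose while Uqcrb fell, and over the 8 subunits of complex III the median was -0.017, with 3 above 0. Ndufv1 was at 10.08, 10.12, 10.01 and 10 in CNS and at 10.44, 10.37, 10.17 and 10.22 in CHS, and at 10.03, 10.02, 10.15 and 10.01 in FNS and at 10.34, 10.33, 10.28 and 10.33 in FHS. High-salt and normal-salt rats did not overlap on either fluid. The calls other than that of Cox7cl1 held with any 1 rat left out, and with the arrays centred on their medians that of Sdhc was lost (adjusted p = 0.0546).

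As groups, the subunits moved little with the chow. In rats on water 47 of the 67 lay above 0, with a median of 0.062 against 0.004 over all rows, and in rats on fructose 28 did, with a median of -0.026 against 0.041. Over the 11603 rows with a single symbol and a mean above the median row, these medians were -0.012 and -0.030. Of those rows 48% and 44.5% lay above 0, so the subunit median in rats on fructose was near that of rows of like level. Complex V had 13 of 13 subunits above 0 in rats on water, at a median of 0.111, and 5 of 13 in rats on fructose, at -0.011. None of these 13 was called, and the 2 with an unadjusted p under 0.05 were Atp5f1a, the alpha subunit of the catalytic head (0.20 ± 0.07, adjusted p = 0.134), and Atp5mc3, a c-ring subunit (0.22 ± 0.10, adjusted p = 0.257). With an intensity trend Atp5f1a was called. Complex IV had medians of -0.024 and -0.021 over its 9 subunits. The sign of such small medians depended on the scaling: over the 92 members the median in rats on fructose was -0.022 as deposited, 0.036 after quantile normalization and -0.097 with centred arrays, while in rats on water it was 0.061, 0.060 and 0.038. At an unadjusted p under 0.05 there were 13 members higher and 3 lower in rats on water (18.1% of all rows, 8.72% higher and 9.42% lower), and 6 higher and 7 lower in rats on fructose (21.3%, 11.9% higher and 9.38% lower).

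Without rat 2 the median of the 67 subunits in rats on water was 0.127, with 53 above 0, and that of the 13 complex V subunits was 0.227, with 4 of them at an unadjusted p under 0.05 and 1 called, Atp5po of the peripheral stalk, which had a difference of 0.28 ± 0.16 over all rats (adjusted p = 0.381). Without rat 14 the median in rats on fructose was 0.013, with 37 above 0. Over the same comparisons the markers of the first proximal tubule segments had 8 of 9 above 0 in rats on water (median 0.126) and 3 of 9 in rats on fructose (-0.015). Their mean level was 12.25 to 12.33 in CNS, 12.38 to 12.48 in FNS, 12.25 to 12.52 in CHS and 12.00 to 12.60 in FHS. The markers of the third segment went the other way, with 4 of 6 below 0 in rats on water (-0.183) and 5 of 6 above 0 in rats on fructose (0.356), at mean levels of 8.73 to 10.04, 8.84 to 10.32, 8.90 to 10.18 and 8.92 to 10.29 in CNS, FNS, CHS and FHS. Those of the distal convoluted and connecting tubule had 5 of 7 above 0 in rats on water (0.155) and 6 of 7 below 0 in rats on fructose (-0.212). Those of the thick ascending limb (6 of 6 found) had mean levels of 10.36 ± 0.29, 10.27 ± 0.19, 10.20 ± 0.17 and 10.19 ± 0.32 (SD) in CNS, FNS, CHS and FHS. Markers of podocytes (4 of 6 found) had 4 of 4 below 0 in both comparisons, 1 of them called in each (means of 7.97 to 8.22, 7.83 to 8.12, 7.61 to 7.84 and 7.66 to 7.93 in the order CNS, FNS, CHS, FHS). Called markers of other lists went both ways. In rats on water they included Aqp2 of the collecting duct (0.66), Cdh5 of endothelium (-0.66), Cx3cr1 of macrophages (-0.79) and Myh11 of smooth muscle (-0.69). In rats on fructose they included Aqp2 (1.07), Cdh5 (-0.59), C1qa of macrophages (0.65) and Col3a1 of fibroblasts (0.45). Uncalled markers of the same lists went both ways too. In rats on fructose, Scnn1g of the collecting duct had a difference of 0.42, Tek of endothelium 0.32 and Tagln of smooth muscle -0.34. In rats on water, Atp6v1b1 of the collecting duct had -0.33. Collecting duct means were 8.97 to 9.07, 8.8 to 9.07, 8.91 to 9.19 and 8.96 to 9.15 in CNS, FNS, CHS and FHS. Those of endothelium were 8.99 to 9.13, 8.79 to 9.12, 8.67 to 8.99 and 8.66 to 8.99. The part of these markers in the subunit values was not tested.

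**Figure D4:**
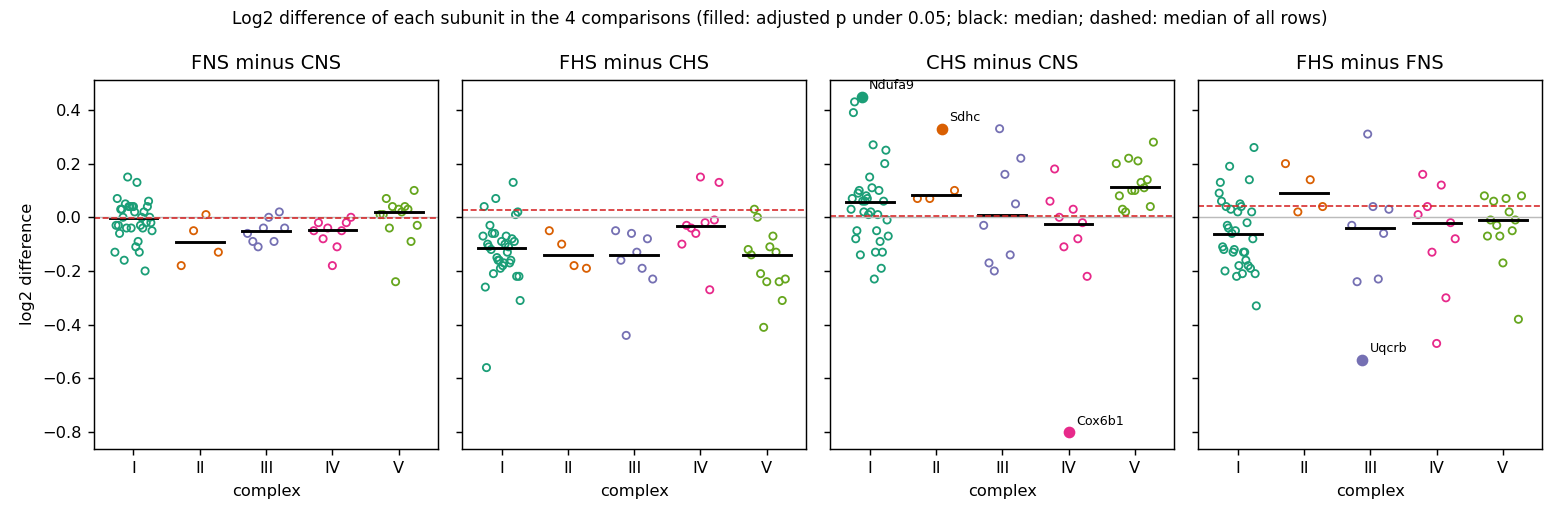
Log2 difference (y axis) of each of the 67 subunits by complex (x axis) in the 4 comparisons; filled points are called at an adjusted p under 0.05, black lines are medians per complex, and the dashed line is the median of all 36685 rows. In FHS minus CHS most points of each complex lie below 0, with the median of complex IV nearest to it. The filled points are Ndufa9, Sdhc and Cox6b1 in CHS minus CNS and Uqcrb in FHS minus FNS.

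Fructose and the high-salt chow together (FHS against CNS) gave 5 called members of 92, a smaller share than the 8.4% of all rows called (4.31% higher and 4.09% lower). Uqcrb fell by 0.64 ± 0.12 on the log2 scale, or 0.643-fold (SE, limma, adjusted p = 0.00534), Uqcrfs1, the Rieske iron-sulfur protein of complex III, by 0.33 ± 0.09 (0.0279), and Cox6b1 by 0.65 ± 0.19 (0.0452). The copies Ndufb4l1 and Uqcr11l1 rose by 0.68 ± 0.19 (0.0356) and 0.50 ± 0.14 (0.037). For Uqcrb, means over the groups ran 7.62 ± 0.18, 7.51 ± 0.09, 7.42 ± 0.09 and 6.98 ± 0.24 (SD, n = 4) in CNS, FNS, CHS and FHS, and for Uqcrfs1 9.49 ± 0.09, 9.39 ± 0.05, 9.35 ± 0.10 and 9.16 ± 0.11.

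Uqcrfs1 was at 9.43, 9.57, 9.56 and 9.39 in the CNS rats and at 9.24, 9.01, 9.23 and 9.14 in the FHS rats, which did not overlap, as for 10 of the 92 members (1 higher, 9 lower) and 14.3% of all rows (7.55% higher, 6.72% lower). Over the 67 subunits the median was -0.056, with 22 above 0, and it was 0.032 without rat 2, -0.017 without rat 14 and 0.058 without both. With all rats it was 0.035 over all rows and -0.014 over the 18342 rows with a mean above the median row. The row shared by Uqcrb and Uqcrbl1 was not called (-0.56 ± 0.20, SE, limma, adjusted p = 0.0898). The call of Uqcrb on its own row held with any 1 rat left out, after quantile normalization (adjusted p = 0.00618) and on the 8 arrays alone (adjusted p = 0.0479). Those of the other 4 were lost after quantile normalization (adjusted p of 0.0555 for Uqcrfs1, 0.0826 for Cox6b1, 0.0865 for Ndufb4l1 and 0.0893 for Uqcr11l1) and on the 8 arrays alone (0.113, 0.122, 0.0867 and 0.119), and those of the copies also with centred arrays (0.077 and 0.0739). With rats left out, that of Uqcrfs1 was lost without rat 2, 3 or 14, that of Cox6b1 without 13 of the 16 rats in turn, and those of both copies without any of rats 1, 3, 4, 13, 15 and 16. This comparison shares its CNS rats and its FHS rats with those above.

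With the arrays centred on their medians the count of calls was 0 higher and 6 lower, in place of 2 and 3, and of all called rows 26.8% were higher in place of 51.3%. The same centring gave 29.5% higher in place of 50.9% for the high-salt chow in rats on fructose and 33.2% in place of 49.0% for its average over both fluids.

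For the member with the highest mean level in each complex, the range over all rats was as follows. Ndufa4, counted here in complex I and now assigned to complex IV, was between 11.99 and 12.34 in all 16 rats, Sdha between 11.63 and 12.09, Uqcrc2, the second core protein of complex III, between 11.47 and 11.77, Cox6a1, the liver-type form of its complex IV subunit, between 12.38 and 12.79, and Atp5f1a between 12.55 and 12.84. None of them was called in any comparison as tested over all rows and rats. Atp5f1a, whose CNS and CHS rats did not overlap (12.55 to 12.68 and 12.78 to 12.84), was called for the chow in rats on water with an intensity trend, and for the chow averaged over both fluids (0.14 ± 0.05, adjusted p = 0.0755) after quantile normalization, with the filter on dim rows and with the trend. Cox7a2l had its smallest p in fructose averaged over both chows, at -0.14 ± 0.07 (SE, limma, adjusted p = 0.67).

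Of the 16 pseudogenes and copies, whose probes may also bind the parent transcript, 10 lay above 0 in FHS against CNS, with a median of 0.165, against 0.035 over all rows, and their difference from the subunits was not tested. Over the 18342 rows with a mean above the median row the median was -0.014. Several copies lie below that row, and they were not set against rows of like level. Among the copies below 0, chosen after their values were seen, Ndufb4l3 and Ndufb4l4 had differences of -0.43 ± 0.16 and -0.50 ± 0.23 (SE, limma, adjusted p = 0.113 and 0.199), beside -0.18 ± 0.11 for Ndufb4 (adjusted p = 0.314). Ndufb4l1 was at 3.99, 4.14, 3.62 and 4.12 in the CNS rats and at 4.87, 4.13, 4.93 and 4.67 in the FHS rats, where rat 14 lay among the CNS rats. Uqcr11l1 was at 4.43, 4.99, 4.51 and 4.34 in the CNS rats and at 5.32, 4.92, 4.99 and 5.05 in the FHS rats, which overlapped through rat 2. Both lie below the median row mean of 5.29. With fructose on the high-salt chow Uqcr11l1 had a difference of 0.45 ± 0.14 (SE, limma, adjusted p = 0.34). In the interaction, Ndufs6-ps1 and Uqcr10-ps1 had differences of -0.40 ± 0.19 and -0.38 ± 0.18 (adjusted p = 0.824 for both), and Atp5mgl1 one of 0.31 ± 0.11 with the high-salt chow averaged over both fluids (adjusted p = 0.0619).

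The tissue-restricted isoforms were all low and none was called. They were Cox4i2 of the lung (4.84 to 5.49), Cox6a2 and Cox8b of muscle (4.92 to 5.88 and 4.21 to 4.82), Cox6b2, Cox7b2 and Cox8c of the testis (4.65 to 5.46, 2.81 to 3.57 and 3.45 to 4.26) and Ndufa4l2, a hypoxia-induced relative of Ndufa4 (4.77 to 5.38). Cox6a2 was at 5.20, 5.12, 4.92 and 5.14 in the CNS rats and at 5.34, 5.43, 5.48 and 5.78 in the CHS rats, with a difference of 0.42 ± 0.15 (SE, limma, adjusted p = 0.142). Skeletal and cardiac muscle markers (5 of 8 found) had mean levels of 4.54 to 4.77 in CNS and 4.55 to 4.85 in CHS.

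Around the complexes, the assembly factors, electron feeders and inner membrane carriers were read against the 3.29% of all rows called for the chow in rats on water and the 5.36% in rats on fructose. Of the 17 assembly factors found for complex IV, 1 was called in rats on water and 2 in rats on fructose. Cox20, a chaperone of a mitochondrially encoded subunit, fell on the high-salt chow by 0.56 ± 0.10 in rats on water (adjusted p = 0.00898) and by 0.74 ± 0.10 in rats on fructose (adjusted p = 0.00111), and Cox18, a membrane insertase for the same subunit, rose by 0.31 ± 0.08 in rats on fructose (SE, limma, adjusted p = 0.0428). Of the 3 found for complex II, Sdhaf2, which helps to attach the flavin to Sdha, fell by 0.32 ± 0.07 in rats on fructose (adjusted p = 0.0217), the only 1 of the 3 called there. None of the 17 found for complex I, of the 5 for complex III or of the 5 for complex V was called for the chow in rats on water or on fructose. No assembly factor was called for fructose on either chow.

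Of 20 electron feeders and carriers found, 2 were called in rats on water and 1 in rats on fructose. Coq6 and Coq10b, of coenzyme Q synthesis and handling, rose in rats on water by 0.36 ± 0.08 and 0.65 ± 0.16 (limma, adjusted p = 0.0271 and 0.0401), and Prodh, the proline dehydrogenase that feeds electrons to coenzyme Q, rose in rats on fructose by 0.83 ± 0.18 (adjusted p = 0.0191). Cycs, cytochrome c, had a difference of -0.45 ± 0.16 there (adjusted p = 0.119). Ucp2, an inner membrane carrier, fell by 0.55 ± 0.13 in rats on fructose (adjusted p = 0.0211), 1 of 8 carriers found.

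Of 16 regulators of mitochondrial biogenesis, none was called in either fluid alone, and 3 were lower on the high-salt chow averaged over both fluids, where 13.3% of all rows were called and 6.77% were called lower. They were Ppargc1a, the coactivator of these genes (-0.37 ± 0.09, adjusted p = 0.0128), Gabpa, which binds the ETS word above (-0.44 ± 0.12, 0.0243), and Tfam, which packs and transcribes mitochondrial DNA (-0.30 ± 0.09, 0.0315), the 3 that were called. Nrf1, which binds the NRF1 word, had a difference of 0.03 ± 0.07, and Esrra, chosen after its values were seen because it binds the nuclear receptor word, of 0.16 ± 0.06 (SE, limma, adjusted p = 0.846 and 0.11). Yy1, also among the 16, was not called for the chow. The regulator with the smallest p in rats on water was Esrrb, which was higher by 0.34 ± 0.10 (SE, limma, adjusted p = 0.0845). Mitochondrial ribosomal proteins, 71 found, had a median of -0.090 with fructose on the high-salt chow (53 of 71 below 0, 0 called) and cytosolic ribosomal proteins, 126 found, one of -0.010 (72 below 0, 0 called).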

How the data were processed

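RNA of the kidney cortex of 16 rats was measured on 1 array each. The authors summarised the arrays by RMA with median polish in Affymetrix Expression Console, naming "quartile" as the normalization, and deposited log2 values, which were used as they are. No probe-level signal was used, so no background limit per gene was set, and the small number of arrays limits the precision. Groups came from the labels, and 0 columns were left unmapped.

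All 36685 rows were fitted in R 4.3.3 with limma 3.58.1 (1 mean per group, empirical Bayes, 8 contrasts, two-sided, Benjamini and Hochberg adjustment over all rows), after the fit had been tested on simulated data. Python 3.11.15, numpy 2.4.6, pandas 2.3.3 and matplotlib 3.10.9 served for promoters and figures. Each rat was taken as independent. Of the rows, 18511 had 1 symbol, 575 several and 17599 none in the platform annotation, and only rows with 1 symbol were named. All 92 symbols were found in RefSeq, and 74 had a promoter window. Cox5a had a pair of rows with identical values and was counted once.

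The members, the gene lists and the tests were chosen with earlier results of these data known. Members named in the text are the 3 with the smallest p in each comparison and in the interaction, per complex the one of highest mean and those with the smallest p for fructose and for the chow averaged, a few well-known subunits, the tissue-restricted isoforms and, by addition, every called member and some with an interval or value of interest, chosen after their values were seen. Of each list, up to 2 genes with the smallest p per comparison are named, and others are said to be chosen later.

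Alternatives were arrays centred on their medians, quantile normalization, a filter on dim rows, an intensity trend, only the arrays compared, all rows of a symbol averaged, members without isoforms, copies and non-subunits, Ndufa4 in complex IV, the ANOVA named in the study's methods, and each rat left out. Leaving out CNS rat 2 and FHS rat 14 together was added after the data were seen.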

Additional observations from a re-analysis of the deposited data

Results flagged for a closer look

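In each group of 4 rats the highest or lowest value was set against the others (gap over range above 0.829, which chance exceeds in about 1 of 20 groups), for the named members and the complex means. This marked 14 of 160 groups.

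CNS rat 2 was the high value in 6 of them. It was at 10.44 for Uqcrc1 (the others at 10.01 to 10.07), at 10.81 for Sdhb (10.55 to 10.57), at 12.5 for Atp5f1b (12.35 to 12.38) and at 9.48 for Cox7a2l (9.13 to 9.15). Its centred mean was 0.07 over complex II (-0.06 to -0.04) and 0.21 over all members of complex V (-0.15 to -0.1).

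In the other groups, CHS rat 11 was at 11.9 for Sdha (12.04 to 12.06), at 11.77 for Uqcrc2 (11.64 to 11.65) and at 10.11 for Ndufs6-ps1 (9.63 to 9.67). FNS rat 7 was at 10.15 for Ndufv1 (10.01 to 10.03) and at 12.38 for Cox6a1 (12.63 to 12.64). FHS rat 14 was at 11.71 for Sdha (12.03 to 12.09), FHS rat 16 at 12.41 for Atp5f1b (12.31 to 12.32), and FNS rat 5 had a complex II mean of -0.02 (-0.14 to -0.12).

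Rows with several symbols are outside the members, and some of them passed the test. The row of Cox7a2l2 or Cox7a2 rose with the high-salt chow by 0.5 in rats on water (adjusted p = 0.0252) and by 0.38 averaged over both fluids (adjusted p = 0.0055). The row of Atp5f1c or Taf3 had differences of -0.41 in rats on fructose (adjusted p = 0.0136), -0.36 averaged over both fluids (adjusted p = 0.00152) and -0.51 in FHS against CNS (limma, adjusted p = 0.00294). Atp5f1c encodes the central stalk of the ATP synthase, and these rows cannot tell it from the other gene.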

How the results depend on the processing

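No called difference changed its direction under an alternative, but small medians changed sign. Fructose on either chow, fructose averaged and the interaction gave 0 called members under every alternative run, and the methods' ANOVA gave 0 of 92 at an unadjusted p under 0.05 on the normal-salt chow and 16 on the high-salt chow, 0 after Benjamini and Hochberg. In place of 2 higher and 1 lower, the chow in rats on water gave 1 higher with centred arrays, 4 higher with the filter and with the trend, and 0 and 0 with only the arrays compared. In rats on fructose (0 and 1), 1 higher, Ndufv1, was added by quantile normalization, the filter and the trend, and only the arrays compared left 0 lower. Averaged over both fluids (6 and 2), 4 were lower with centred arrays, the filter and the trend. In FHS against CNS (2 and 3), centred arrays gave 0 higher and 6 lower, quantile normalization 1 lower (with Uqcrb the 1 call shared, and Ndufa9 and Ndufv1 higher in place of both copies), and only the arrays compared 0 higher and 1 lower. Centred arrays moved the median of FHS against CNS to -0.128 over all members, -0.166 in complex I, -0.099 in complex II and -0.074 in complex IV, and that of complex II to -0.211 with fructose on the high-salt chow and to 0.016 with the chow in rats on fructose. Quantile normalization gave 0.026 for complex II in the interaction, in place of -0.053. With 1 rat, or rats 2 and 14 together, left out, the counts higher and lower went from 1 to 6 and 0 to 1 (chow, water), 0 to 2 and 0 to 1 (chow, fructose), 5 to 10 and 2 to 3 (averaged), and 0 to 4 and 1 to 3 (FHS against CNS). Over all 20 members of complex V the median for the chow in rats on water went from 0.064 to 0.213, and those of FHS against CNS from -0.082 to 0.082 over all members, -0.133 to 0.044 in complex I, -0.041 to 0.096 in complex II and -0.025 to 0.133 in complex IV. For FHS against CNS the lowest medians came without CNS rat 4, FHS rat 13 or CNS rat 3, and the highest without rats 2 and 14. The cause was not tested. No paired analysis was made, since each group holds different rats, and shared cages could not be modelled because the labels do not give them.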
